A study of Mus musculus with 12 samples.

Results

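Described here are 10 genes for factors of the stromal niche of bone marrow, across 4 groups of sorted bone cells. They are the receptor gene Lepr, the cytokine and chemokine genes Cxcl12, Kitl, Il7 and Cxcl14, the growth factor gene Ptn, the adipokine gene Adipoq and the transcription factor genes Ebf1, Ebf3 and Foxc1. Each was taken from the probe set (the group of array probes for a gene) to which the platform annotation gives that symbol alone. Each of the 10 had 1 such probe set, out of 19937 genes with a single-symbol probe set. The genes were selected on their measured differences between tumor-bearing and tumor-free mice, lower in osteoblasts and higher in endothelial cells. Those differences are therefore a description: counts of calls among the genes stand beside the share of all genes called, and nothing is read from them.

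Blood stem cells and early lymphoid cells live beside stromal cells of the marrow known as CXCL12-abundant reticular cells, which express the leptin receptor. These cells secrete CXCL12, which holds blood stem cells in the marrow, stem cell factor, which sustains them, and interleukin 7, on which B cell progenitors depend. The transcription factors FOXC1, EBF1 and EBF3 maintain this cell state, and EBF3 keeps these cells from turning into bone-forming cells. Endothelial cells of the marrow are known as a further source of CXCL12 and stem cell factor.

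RNA was measured on 12 Affymetrix arrays, 3 for each of 4 groups, from cells sorted out of the long bones of female C57BL/6 mice. Tumor-bearing mice had received 500000 EO771 cells, which derive from a mammary tumor of C57BL/6, by intracardiac injection, and bones were taken about 2 weeks later. Whether tumor-free mice were injected, and the age of the mice, is not given in the sources used here. Both gates left out tumor cells by GFP and blood cells by Ter119 and CD45. Osteoblasts were then taken as CD51+ and negative for CD31 and SCA1, and endothelial cells as double positive for CD31 and SCA1. Each array used RNA of 5000 cells, and the labels call the 3 arrays of a group biological replicates. The design text speaks of 6 to 10 samples for the cell suspensions, without saying whether animals were pooled for an array. The osteoblast gate has no marker of mature osteoblasts, and CD51 is also known from stromal progenitors.

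The arrays carried the markers of their gates. Summarised as the mean log2 value of a list, 15 endothelial markers lay between 9.27 and 9.60 on the 6 endothelial arrays and between 5.87 and 6.07 on the 6 osteoblast arrays. The 11 osteoblast markers tested lay between 9.67 and 10.13 on osteoblast arrays and between 6.22 and 6.86 on endothelial arrays. The osteoblast arrays also carried chondrocyte markers (8.37 to 10.26, against 6.22 to 6.64 on endothelial arrays), at uneven levels within both osteoblast groups. Replicate 3 of the tumor-free osteoblasts stood apart in neutrophil markers, at 9.90 against 6.73 to 8.30 on the other 11 arrays. Where leaving out 1 array, or replicate 3 of both osteoblast groups, moved a gene's tumor difference by over 1.5 times, the value without it is given below.

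Values are log2 expression values as deposited, where a difference of 1 is a doubling. A gene entered the tests across genes if at least 3 of the 12 arrays had it over their own 40th percentile, taken over all probe sets, which 14217 genes did, all 10 niche factors among them. Il7 passed with 4 arrays above that level and Foxc1 with 11, and the other 8 genes were above it on all 12 arrays. In bulk RNA of sorted cells, fewer cells of a type and less RNA per cell cannot be told apart.

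Lepr, which encodes the leptin receptor and marks the reticular cells, was bright on every osteoblast array. Its log2 values were 10.22, 10.42 and 10.35 on the tumor-free osteoblast arrays, 10.20, 9.93 and 9.62 on the tumor-bearing ones. On endothelial arrays they were 8.03, 7.28 and 7.43 in tumor-free mice, 10.20, 9.34 and 8.82 in tumor-bearing mice. With a tumor, all 3 endothelial arrays were brighter than any of the 3 without, and replicate 1 reached the level of the brightest osteoblast array of tumor-bearing mice. The endothelial log2 difference, tumor-bearing minus tumor-free, was 1.87 (SE 0.32), or 3.67-fold, and the osteoblast difference was -0.41 (SE 0.32). Without tumor-bearing replicate 3 the osteoblast difference was -0.26, and without replicate 3 of both osteoblast groups -0.25. 

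Cxcl12, the chemokine that retains blood stem cells through its receptor CXCR4, had the same order of groups. It was at 10.98, 10.73 and 10.76 in tumor-free osteoblasts and at 10.60, 10.49 and 10.15 in tumor-bearing ones. In endothelial cells it was at 9.49, 8.10 and 9.11 in tumor-free mice and at 10.46, 9.84 and 9.56 in tumor-bearing mice. Neither pair of groups overlapped, although endothelial replicate 3 of tumor-bearing and replicate 1 of tumor-free mice were close. Tumor-bearing minus tumor-free, Cxcl12 differed by -0.41 (SE 0.33) in osteoblasts and by 1.06 (SE 0.33) in endothelial cells, which became 0.66 without endothelial tumor-free replicate 2.

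Promoters are shown for Lepr and Cxcl12, the receptor and the ligand that define the reticular cells, and for the members whose promoter held a motif searched for. RefSeq (GRCm38.p6) gave promoter windows of 300 bases, from 250 bases before to 50 after the start of transcription, for 9 of the 10 genes, with 11 windows in all since Lepr and Ebf1 have 2 starts each. The windows were searched on both strands for the core of the EBF motif (CCCNNGGG), the core of the forkhead motif (GTAAACA) and the TATA box (TATAAA), and capitals mark a match. The windows shown lie at chr4:101717157-101717456 (plus strand, the first of the 2 Lepr starts), chr6:117168285-117168584 (plus strand, Cxcl12), chr10:100015571-100015870 (plus strand, Kitl), chr7:137314396-137314695 (minus strand, Ebf3) and chr6:36810130-36810429 (minus strand, Ptn), each written 5′ to 3′ along its gene.
Lepr: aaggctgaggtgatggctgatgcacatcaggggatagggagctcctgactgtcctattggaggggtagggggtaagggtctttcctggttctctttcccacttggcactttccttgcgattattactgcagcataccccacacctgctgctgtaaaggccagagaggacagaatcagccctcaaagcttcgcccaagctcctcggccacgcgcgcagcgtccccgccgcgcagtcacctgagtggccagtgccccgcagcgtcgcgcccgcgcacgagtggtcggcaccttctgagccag
Cxcl12: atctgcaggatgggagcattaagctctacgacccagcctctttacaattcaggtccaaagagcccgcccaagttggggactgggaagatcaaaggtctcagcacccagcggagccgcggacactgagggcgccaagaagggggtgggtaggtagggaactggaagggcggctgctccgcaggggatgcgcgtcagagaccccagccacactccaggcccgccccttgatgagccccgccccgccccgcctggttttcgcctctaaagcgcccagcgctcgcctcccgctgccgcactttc
Kitl: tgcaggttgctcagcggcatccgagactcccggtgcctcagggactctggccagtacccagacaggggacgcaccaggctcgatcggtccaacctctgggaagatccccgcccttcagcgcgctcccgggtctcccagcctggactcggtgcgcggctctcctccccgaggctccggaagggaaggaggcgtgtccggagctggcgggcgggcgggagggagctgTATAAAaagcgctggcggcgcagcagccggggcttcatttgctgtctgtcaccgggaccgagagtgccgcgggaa
Ebf3: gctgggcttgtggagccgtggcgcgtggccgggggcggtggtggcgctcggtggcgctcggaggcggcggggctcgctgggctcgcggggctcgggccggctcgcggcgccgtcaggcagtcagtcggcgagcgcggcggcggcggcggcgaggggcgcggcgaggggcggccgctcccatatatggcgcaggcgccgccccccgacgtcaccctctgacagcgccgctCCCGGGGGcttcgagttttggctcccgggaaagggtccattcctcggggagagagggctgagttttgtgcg
Ptn: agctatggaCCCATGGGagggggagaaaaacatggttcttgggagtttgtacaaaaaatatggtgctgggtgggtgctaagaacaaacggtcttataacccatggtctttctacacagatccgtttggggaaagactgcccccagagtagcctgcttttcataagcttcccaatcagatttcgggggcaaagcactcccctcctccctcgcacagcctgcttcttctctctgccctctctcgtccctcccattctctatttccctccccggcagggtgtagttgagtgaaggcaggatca
The EBF core was present in 2 of the 11 windows, those of Ebf3 and Ptn, and in 13.7% of all 32851 promoter windows. The TATA box was present in that of Kitl, 25 bases before the start, and in 13.6% of all windows. The forkhead core was in 0 of the 11 windows and in 3.65% of all. A match is a run of letters and not a measured binding site.

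Kitl, which encodes stem cell factor, the ligand of the receptor KIT, was the member whose groups lay closest together. It was at 8.77, 8.12 and 7.91 in tumor-free osteoblasts and at 8.40, 7.92 and 7.47 in tumor-bearing ones. In endothelial cells it was at 7.35, 7.36 and 7.33 in tumor-free mice and at 8.33, 8.21 and 7.86 in tumor-bearing mice. The osteoblast groups overlapped, while each endothelial array of tumor-bearing mice lay above all tumor-free ones. In tumor-bearing mice the endothelial mean (8.13 ± 0.25, SD, n = 3) was above the osteoblast mean (7.93 ± 0.47), which was so for no other member. The log2 differences between tumor-bearing and tumor-free mice were -0.34 (SE 0.26) in osteoblasts and 0.79 (SE 0.26) in endothelial cells. The osteoblast value rested on single arrays, with -0.085 without tumor-free replicate 1, -0.10 without tumor-bearing replicate 3, -0.52 without tumor-free replicate 3 and -0.57 without tumor-bearing replicate 1.

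Il7, the cytokine on which B cell progenitors depend, was dim and uneven. It was at 7.42, 7.84 and 5.55 in tumor-free osteoblasts and at 7.77, 4.91 and 5.19 in tumor-bearing ones. On endothelial arrays it was at 4.27, 4.23 and 4.57 in tumor-free mice and at 5.63, 4.54 and 4.20 in tumor-bearing mice. It exceeded the 40th percentile on 2 and 1 of the 3 osteoblast arrays of tumor-free and tumor-bearing mice, and on 0 and 1 of the endothelial arrays. The log2 difference of -0.98 (SE 0.77) in osteoblasts is smaller than the range within either osteoblast group. It ran from -1.89 without tumor-bearing replicate 1 to -0.46 without tumor-bearing replicate 2, and was -0.60 and -1.67 without replicate 3 of the tumor-bearing and the tumor-free group and -0.53 without tumor-free replicate 2. The endothelial difference was 0.43 (SE 0.77), but 0.013 without tumor-bearing replicate 1 and 0.73 without tumor-bearing replicate 3.

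Cxcl14, a chemokine gene that marrow stromal cells express, was at 9.48, 8.76 and 9.79 in tumor-free osteoblasts and at 9.19, 8.91 and 8.46 in tumor-bearing ones. In endothelial cells it was at 7.10, 6.62 and 6.87 in tumor-free mice and at 8.70, 9.04 and 7.42 in tumor-bearing mice. Tumor-bearing endothelial replicate 3 was well below the other two but above all tumor-free endothelial arrays, and the osteoblast groups overlapped. Cxcl14 differed by -0.49 (SE 0.40) in osteoblasts and 1.52 (SE 0.40) in endothelial cells. The osteoblast difference was -0.29 without tumor-bearing and -0.26 without tumor-free replicate 3, -0.066 without both, and -0.78 without tumor-free replicate 2.

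Ptn encodes pleiotrophin, a heparin-binding growth factor that acts on blood stem cells. It was at 10.59, 10.29 and 9.83 in tumor-free osteoblasts and at 10.11, 10.16 and 9.23 in tumor-bearing ones, which overlapped. On endothelial arrays it was at 6.64, 6.33 and 6.35 in tumor-free mice and at 7.15, 7.61 and 7.33 in tumor-bearing mice. The endothelial groups did not overlap, and yet every endothelial array stayed below every osteoblast array. The log2 differences were -0.41 (SE 0.27) and 0.92 (SE 0.27) in osteoblasts and endothelial cells. Without tumor-bearing replicate 3 the osteoblast difference was -0.11, and without tumor-free replicate 1 it was -0.23.

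Adipoq encodes adiponectin, a hormone of fat cells that leptin receptor-positive marrow stromal cells also express. It was at 10.95, 10.54 and 10.85 in tumor-free osteoblasts and at 10.43, 10.34 and 9.81 in tumor-bearing ones. In endothelial cells it was at 8.74, 7.89 and 9.03 in tumor-free mice and at 10.73, 9.58 and 10.23 in tumor-bearing mice. Neither pair of groups overlapped, and endothelial replicate 1 of tumor-bearing mice was above all osteoblast arrays of tumor-bearing mice. The log2 differences were -0.59 (SE 0.34) in osteoblasts and 1.62 (SE 0.34), or 3.08-fold, in endothelial cells, and the osteoblast value was -0.36 without replicate 3 of both osteoblast groups. Of the other markers of fat cells, 7 were tested, and their mean log2 value was between 7.11 and 7.22 on the endothelial arrays of tumor-bearing mice and between 7.14 and 7.21 on those of tumor-free mice. Their tumor differences there ran from -0.12 in the lipid droplet gene Plin1 to 0.10 in Pck1, with the fatty acid carrier gene Fabp4 at -0.03. Of the 7, 4 were above 0 (median 0.01).

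Ebf1, a transcription factor gene of marrow reticular cells and of the B lineage, was at 9.17, 8.92 and 9.52 in tumor-free osteoblasts and at 8.54, 8.36 and 8.04 in tumor-bearing ones. In endothelial cells it was at 7.60, 7.63 and 6.62 in tumor-free mice and at 7.85, 7.85 and 8.19 in tumor-bearing mice. Neither pair of groups overlapped. The log2 differences were -0.89 (SE 0.27) and 0.68 (SE 0.27) in osteoblasts and endothelial cells. Without tumor-free replicate 3, the dimmest endothelial array, the endothelial difference was 0.35. B cell markers lay beside this: 4 of the 5 tested had a negative difference in osteoblasts (median -0.48), their mean log2 value was 6.27 to 6.98 in tumor-free and 5.801 to 6.63 in tumor-bearing osteoblasts, and their part in the Ebf1 values was not tested.

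Ebf3, the family member that is known to keep the marrow cavity open by holding reticular cells from bone formation, was at 8.96, 8.75 and 8.57 in tumor-free osteoblasts and at 7.77, 8.05 and 7.38 in tumor-bearing ones. In endothelial cells it was at 7.03, 7.22 and 7.48 in tumor-free mice and at 7.77, 7.72 and 7.61 in tumor-bearing mice. Neither pair of groups overlapped, and the endothelial arrays of tumor-bearing mice lay within the range of the osteoblast arrays of tumor-bearing mice. The log2 differences were -1.03 (SE 0.18), or 2.04-fold lower, in osteoblasts and 0.46 (SE 0.18) in endothelial cells. Without osteoblast tumor-bearing replicate 3 the osteoblast difference of Ebf3 was -0.86 and that of Ebf1 was -0.76.

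Foxc1, a forkhead factor gene required for the reticular cell niche, was dimmer. It was at 8.29, 6.97 and 6.74 in tumor-free osteoblasts and at 6.65, 7.20 and 6.75 in tumor-bearing ones, and tumor-free replicate 1 stood above the other 5. On endothelial arrays it was at 5.67, 5.49 and 6.04 in tumor-free mice and at 6.09, 6.14 and 6.11 in tumor-bearing mice, groups that did not overlap but came as close as 6.04 and 6.09. Foxc1 differed by -0.47 (SE 0.34) in osteoblasts and 0.38 (SE 0.34) in endothelial cells. The osteoblast difference was 0.014 without tumor-free replicate 1, -0.76 without tumor-free replicate 3 and -0.70 without replicate 3 of both groups.

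**Figure D1:**
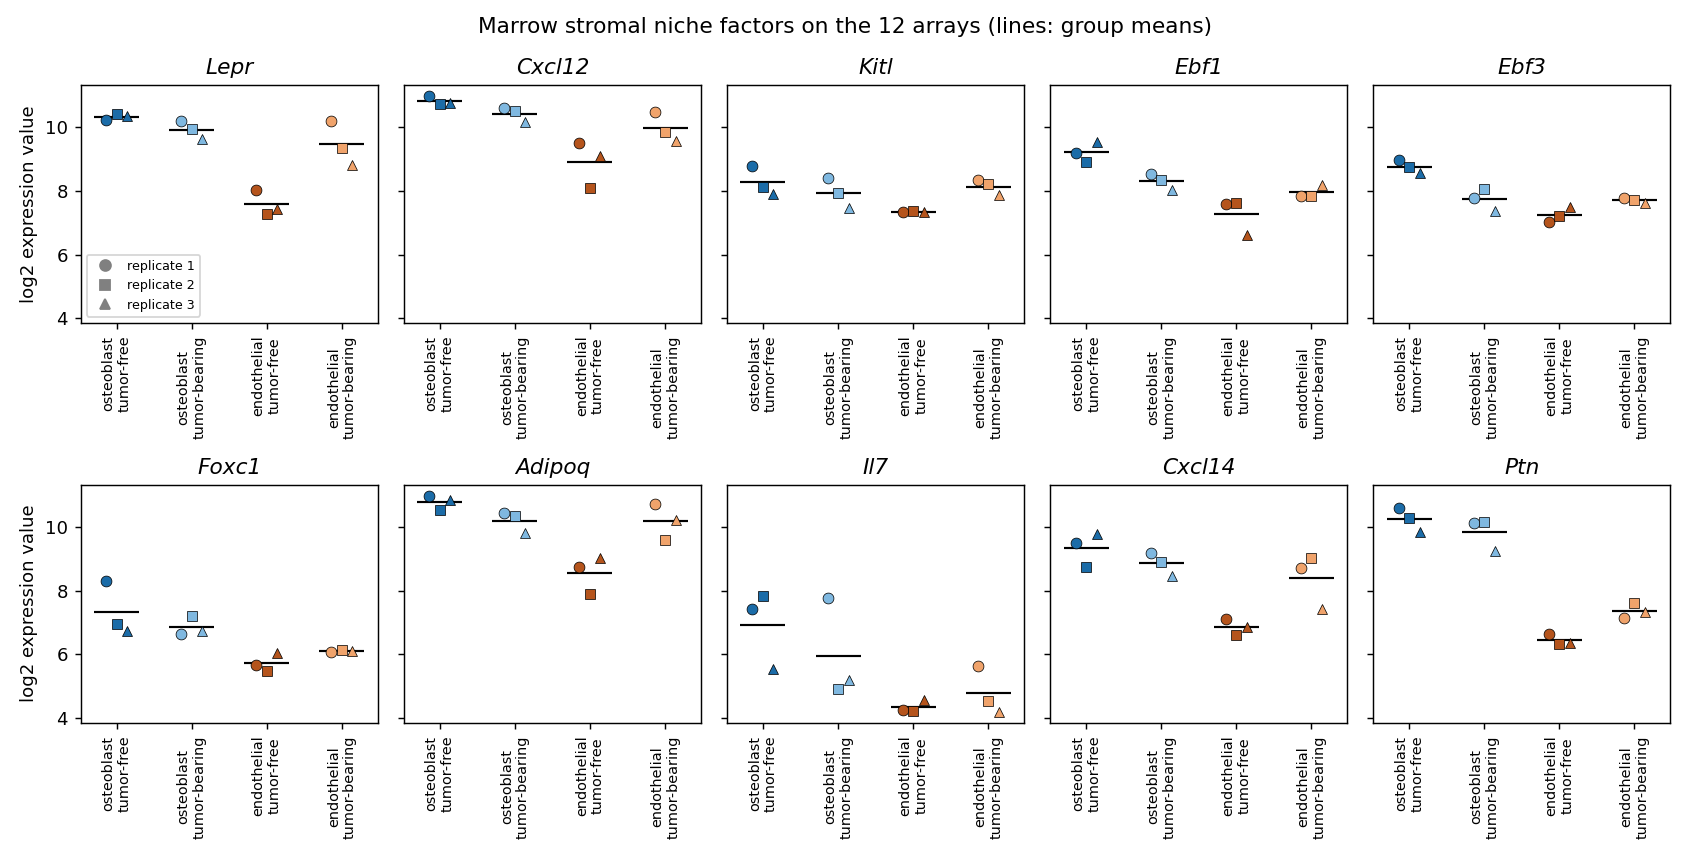
Log2 expression value (vertical axis) of each of the 10 niche factors on the 12 arrays, by group (horizontal axis), with replicates 1, 2 and 3 as circles, squares and triangles and lines at the group means. Endothelial arrays of tumor-bearing mice lie above those of tumor-free mice without overlap in 9 of the 10 genes, all but Il7, and Ptn keeps a wide gap between the cell types.

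Set side by side, the 10 genes showed opposite signs in the cell types. All 10 had a negative tumor difference in osteoblasts, from -1.03 in Ebf3 to -0.34 in Kitl with a median of -0.48, where the median over all genes tested was -0.02. All 10 had a positive difference in endothelial cells, from 0.38 in Foxc1 to 1.87 in Lepr with a median of 0.85, where the median over all genes was 0.01. With limma over all 14217 genes, 0 of the 10 passed at an adjusted p under 0.05 in osteoblasts, where 0.0563% of all genes did, and 0 in endothelial cells, where 0.0141% did. At an unadjusted p under 0.05, 2 of the 10 were lower in osteoblasts (9.78% of all genes passed in either direction) and 8 were higher in endothelial cells (4.59%). The groups did not overlap in 5 members in osteoblasts, all lower (8.36% of all genes), and in 9 in endothelial cells, all higher (5.63%). For the osteoblast minus the endothelial tumor difference, 0 of the 10 passed with limma (0.0281% of all genes) and 8 were lower unadjusted (6.47% in either direction). Since the genes were selected with these contrasts known, nothing is read from these counts.

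**Figure D2:**
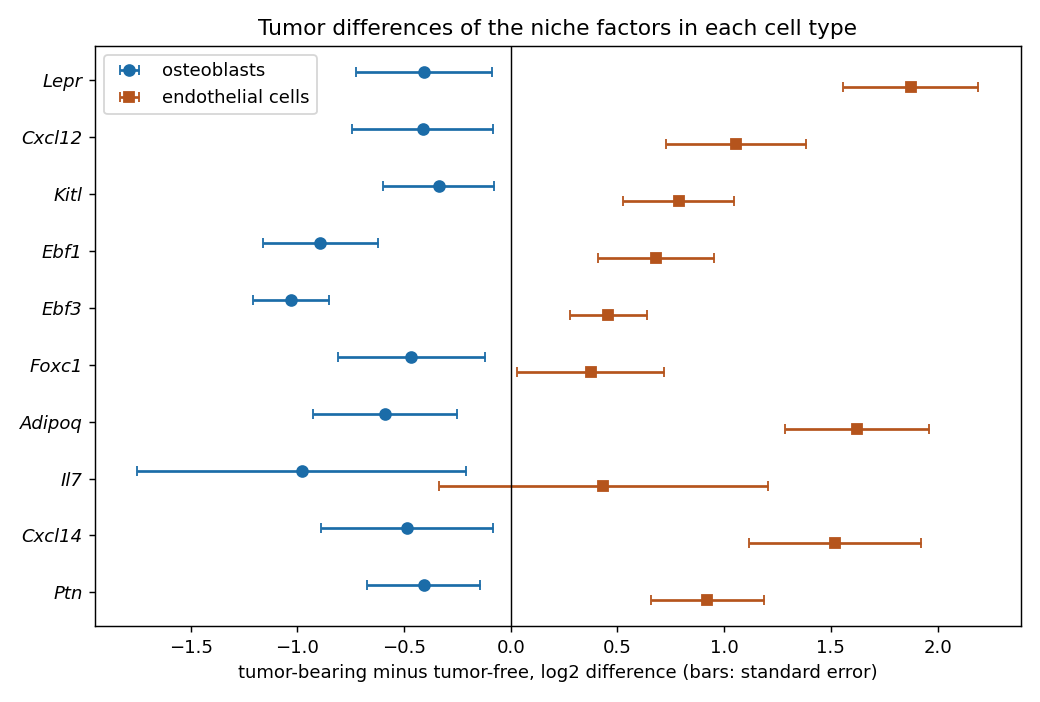
Log2 difference of tumor-bearing minus tumor-free mice (horizontal axis) for each niche factor, in osteoblasts (circles) and endothelial cells (squares), with bars of 1 standard error from the limma fit of all arrays. All osteoblast differences lie below 0 and all endothelial differences above 0, with the widest endothelial values in Lepr, Adipoq and Cxcl14.

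The arrays within a group did not weigh alike. Replicate 3 of the tumor-bearing osteoblasts was the lowest of its group in 8 of the 10 genes. Without it the osteoblast median was -0.34, and without replicate 3 of both osteoblast groups it was also -0.34. Its chondrocyte markers (8.37 against 9.79 and 10.02) were lower and its pan-haematopoietic markers (6.63 against 6.27 and 6.24) higher than on the other arrays of its group. The mean of 4 mammary epithelial markers was also higher on it (6.89 against 6.11 and 6.10), while their median was 6.04 against 5.98 and 6.07. The part of these 3 lists in the values was not tested. Over both osteoblast groups, all 8 neutrophil markers (median -1.05), all 5 erythroid markers (median -0.72) and 4 of 5 B cell markers had negative tumor differences. The neutrophil mean was 9.90 on tumor-free replicate 3, against 7.61 and 7.81 on the other arrays of its group. Of 7 macrophage markers 4 were above 0 (median 0.08), and of 8 pan-haematopoietic markers 4 were (median 0.06). Tumor-free replicate 3 was also the highest of its group in macrophage markers (7.99 against 6.75 and 6.29). The same held for pan-haematopoietic markers (6.91 against 6.07 and 5.81). The part of these blood cell lists was not tested either. Among the tumor-bearing endothelial arrays replicate 1 was the highest in 6 of the 10 genes, and without it the endothelial median was 0.77. Among the tumor-free endothelial arrays replicate 2 was the lowest in 7 of the 10 genes, and without it the endothelial median was 0.82. Its neutrophil markers lay at 8.30, against 6.73 and 7.18 on the other arrays of its group. It was the lowest of its group in osteoblast (6.22 against 6.42 and 6.41) and fibroblast markers (5.38 against 5.55 and 5.61). Pericyte markers were close on the 3 arrays (7.43 against 7.44 and 7.49). The part of these lists in the values was not tested.

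The endothelial values were read beside the markers of other stromal cells. Osteoblast markers had a mean log2 value of 6.63 to 6.86 on endothelial arrays of tumor-bearing mice and of 6.22 to 6.42 on those of tumor-free mice. The same ranges were 5.75 to 6.07 and 5.38 to 5.61 for 11 fibroblast markers, and 7.61 to 7.92 and 7.43 to 7.49 for 10 pericyte and smooth muscle markers. The means of these 3 lists were thus higher in tumor-bearing mice, without overlap of the groups, and their part in the result was not tested. Array by array the 3 lists were not alike. Replicate 1 of tumor-bearing mice was the highest of its group in 6 of the 10 genes. It was also the highest in the osteoblast list (6.86 against 6.63 and 6.66) and the fibroblast list (6.07 against 5.75 and 5.91). In the pericyte list it was the lowest (7.61 against 7.92 and 7.74). The list medians of the differences were 0.06, 0.07 and 0.08, with 8 of 11, 9 of 11 and 7 of 10 above 0. Wide differences were those of Mmp13 (2.18), a collagenase gene that limma called, and Ibsp (1.29), a bone matrix gene, in the first list. They were those of the proteoglycan genes Ogn (1.73), Aspn (1.28) and Dcn (1.01) in the second, and of Rgs5 (1.37) and the smooth muscle actin gene Acta2 (1.12) in the third. The collagen gene Col1a1 differed by -0.02 and the osteoblast factor gene Sp7 by 0.02, and Lum, Dpt and Tnxb of the fibroblast list were at or below the 40th percentile on all 6 endothelial arrays. Chondrocyte markers lay between 6.30 and 6.34 in tumor-bearing and between 6.22 and 6.64 in tumor-free mice.

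**Figure D3:**
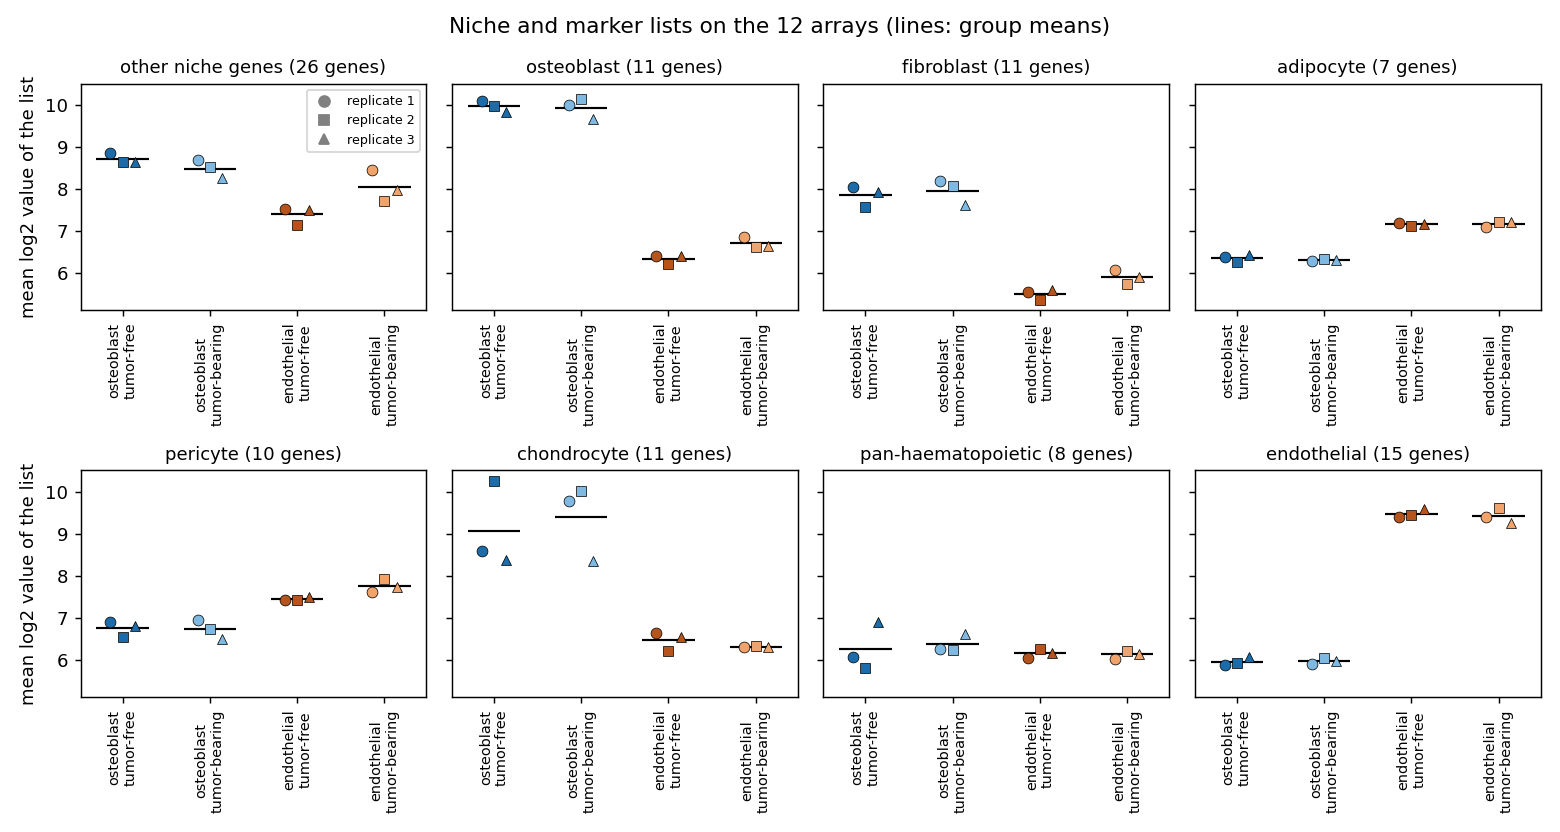
Mean log2 value (vertical axis) of the genes tested in each of 8 lists on the 12 arrays, by group (horizontal axis), with replicates as circles, squares and triangles and lines at the group means. On endothelial arrays the other niche genes and the osteoblast, fibroblast and pericyte lists are higher in tumor-bearing mice without overlap, while adipocyte, chondrocyte and endothelial lists overlap.

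A further list held 26 genes of marrow reticular cells and niche signals that are no members. In endothelial cells 23 of the 26 had a positive tumor difference (51.4% of all genes), with a median of 0.55. None (0) passed adjustment over all genes by limma. At an unadjusted p under 0.05, 12 were higher (4.59% of all genes in either direction), and 11 did not overlap, all higher (5.63%). Lowest in p were the growth factor gene Fgf7 (2.22), the IGF-binding protein gene Igfbp5 (1.42), the haptoglobin gene Hp (1.68) and the cadherin gene Cdh11 (1.503). Fgf7 was at 4.80, 4.73 and 5.71 in tumor-free and at 7.53, 6.95 and 7.40 in tumor-bearing endothelial cells. In osteoblasts 19 of the 26 were negative (53.3% of all genes), with a median of -0.25. Over all genes 0 passed, with 6 lower and 1 higher unadjusted (9.78% of all genes in either direction). The smallest p there belonged to the C/EBP factor gene Cebpd (0.74), the angiotensinogen gene Agt (-0.68), the lipoprotein lipase gene Lpl (-0.61) and the angiopoietin gene Angpt1 (-1.43). Angpt1 was at 8.57, 8.55 and 8.01 in tumor-free and at 7.58, 6.80 and 6.44 in tumor-bearing osteoblasts. Some of these genes were known from earlier results of the same arrays, so the list is no independent support.

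The receptors and partners of the niche factors were a separate list. Of 12 tested, 11 had a positive difference in endothelial cells, with a median of 0.21, and 6 of 12 in osteoblasts, with a median of 0.05. With limma 0 passed over all genes in either cell type. Unadjusted, 1 was higher in endothelial cells (4.59% of all genes in either direction) and 1 lower in osteoblasts (9.78%). The CXCL12 receptor genes Cxcr4 and Ackr3 differed by 0.82 (SE 0.44) and 0.54 (SE 0.31) in endothelial cells. Ptprz1, which encodes a receptor of pleiotrophin, differed by -0.68 (SE 0.21) in osteoblasts. Of 10 genes of leptin receptor signalling, 7 were above 0 in each cell type (46.7% of all genes in osteoblasts), with medians of 0.17 and 0.10 in endothelial cells and osteoblasts. By limma 0 passed over all genes. Unadjusted, 1 was higher in endothelial cells (4.59% of all genes in either direction) and 2 were higher in osteoblasts (9.78%). Irs1, an adaptor of insulin and leptin signalling, was at 4.95, 5.20 and 4.92 in tumor-free and at 6.43, 5.36 and 6.63 in tumor-bearing endothelial cells, a difference of 1.12 (SE 0.29). A list of relatives of the members also held Zfp423, which is in none of their families. Of its 10 genes tested, 3 were above 0 in each cell type, with medians of -0.04 in endothelial cells and -0.15 in osteoblasts. By limma 0 passed over all genes. Unadjusted, 0 were lower in endothelial cells (4.59% of all genes in either direction) and 2 in osteoblasts (9.78%).

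The difference between the cell types was tested where it does not depend on the tumor contrasts that shaped the list, as osteoblasts minus endothelial cells averaged over both tumor states. This contrast was added after the data were seen, with earlier results of these data known, so its p-values are no independent support. Il7 is left out of this count, since it entered the tests through 3 osteoblast arrays and 1 endothelial array. With limma 8 of the 9 other niche factors were higher in osteoblasts, where 8.97% of all genes were. The median difference of all 10 was 1.18, against -0.02 over all genes tested. Ptn had the widest difference, 3.13 (95% interval 2.72 to 3.55), or 8.77-fold (limma adjusted p = 9.00e-07), and Lepr followed with 1.60 (1.11 to 2.10, limma adjusted p = 0.000490). The other signal genes Cxcl14, Cxcl12 and Adipoq differed by 1.47, 1.19 and 1.12, and the factor genes Foxc1, Ebf1 and Ebf3 by 1.18, 1.13 and 0.77, with limma adjusted p from 0.00142 to 0.00697. The value of Il7, 1.87 (0.66 to 3.08), is a description, since 5 of its 6 endothelial values were at or below the 40th percentile. Kitl did not pass at 0.36 (interval -0.05 to 0.77, limma adjusted p = 0.228), but it did without replicate 3 of both osteoblast groups (0.57, limma adjusted p = 0.0411). Every osteoblast array exceeded every endothelial array in 2 of the genes, Ptn and Foxc1 (5.38% of all genes were higher in that way).

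Within tumor-free mice the osteoblast minus endothelial differences ran from 0.92 in Kitl to 3.80 in Ptn, and the groups did not overlap in any of the 10 (13.6% of all genes). With limma 9 of the 10 were called higher (5.38% of all genes). The exception was Il7 (limma adjusted p = 0.0548), which entered the tests mainly through osteoblast arrays. The selection shaped these differences too, so the calls are a description. Kitl was near the threshold (limma adjusted p = 0.0432) and was lost with no filter (0.0550), with trend and robust eBayes (0.0518), in the fit of the groups compared (0.0547) and in 8 of the 12 fits that left out an array (0.0549 to 0.130). Foxc1 was lost in the fit of the groups compared (0.0658). Within tumor-bearing mice they ran from -0.20 in Kitl to 2.47 in Ptn, 1 of the 10 was called, Ptn (4.89% of all genes), and the groups did not overlap in 2, Ptn and Foxc1 (12.1%). Adipoq and Ebf3, with 2.23 and 1.52 in tumor-free mice, had values of 0.01 and 0.03 in tumor-bearing mice. Selecting genes by opposite tumor differences widens the gap in tumor-free mice and narrows it in tumor-bearing mice. The differences within each state and the step between the states are therefore a description. In 9 of the 10 genes the group means ran from tumor-free osteoblasts over tumor-bearing osteoblasts and tumor-bearing endothelial cells to tumor-free endothelial cells. Of these neighbours the tumor-bearing groups of both cell types overlapped in 8 of the 10 genes.

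**Figure D4:**
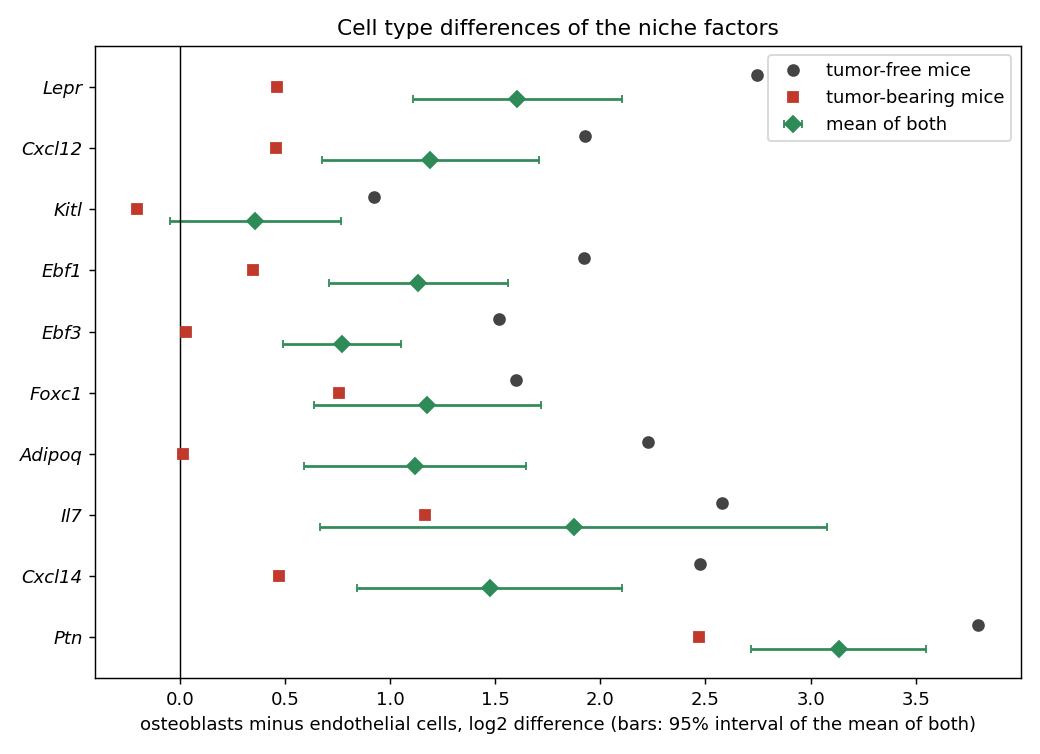
Log2 difference of osteoblasts minus endothelial cells (horizontal axis) for each niche factor in tumor-free mice (circles), in tumor-bearing mice (squares) and averaged over both (diamonds, with 95% intervals from limma). The averaged interval lies above 0 in all genes but Kitl, and Ptn keeps a difference of 2.47 in tumor-bearing mice.

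In the lists beside the members, the cell type difference was less uniform. Of the 26 other niche genes 15 were higher (8.97% of all genes) and 4 lower in osteoblasts by limma in the averaged comparison, with a median of 1.08. The platelet-derived growth factor receptor genes Pdgfra (2.83, limma adjusted p = 1.20e-06) and Pdgfrb (2.09, 2.99e-06) and Fgf7 (3.32, 2.57e-06) were higher, and Pparg, a factor of fat cells that endothelium also expresses, was lower (-3.29, 5.22e-08). Of the 12 receptors and partners 5 were higher and 1 lower. Ptprz1 (4.65, limma adjusted p = 6.43e-09) and the endocytic receptor gene Lrp1 (2.60, 1.21e-07) stood highest, while Kit, the receptor of stem cell factor, was lower (-0.84, 0.00188) that is, brighter in endothelial cells. Of the genes of leptin receptor signalling Irs1 was higher (3.43, limma adjusted p = 8.60e-07) and the kinase genes Jak1 (-1.39, 2.02e-06) and Jak2 (-0.996, 0.000773) were lower in osteoblasts. In the list of relatives Lifr (2.25, limma adjusted p = 1.14e-07) and the midkine gene Mdk (1.03, 0.000490), the paralog of Ptn, were higher. Il6st (-1.70, 6.01e-08) and Zfp423 (-0.88, 0.00385) in that list were lower.

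The genes most like the members in pattern were found by the root mean square difference of log2 profiles over the 12 arrays, each gene centred on its own mean. For Lepr, whose values span 3.13, the nearest non-members were Esm1 (0.20), Igfbp5 (0.32), Kng1 (0.35), Hp (0.36) and the histone gene H2bc4 (0.40). For Cxcl12, with a span of 2.88, they were Esm1 (0.30), Gas6 (0.31), Idh1 (0.31), Kng2 (0.35) and Dpep1 (0.35). Esm1 was also the nearest to Adipoq (0.29). Its group means were 10.53 and 9.97 in tumor-free and tumor-bearing osteoblasts and 8.01 and 9.71 in tumor-free and tumor-bearing endothelial cells. Esm1 is widely known as an endothelial gene, and it was nonetheless brightest in the tumor-free osteoblasts here. The nearest to Kitl was Olfml2a (0.22), to Ebf3 Ltbp2 (0.20), to Ebf1 Gpm6b (0.31), to Foxc1 Fam78b (0.25), to Cxcl14 C1s1 (0.38), to Ptn Fat1 (0.34) and to Il7 Plekhh2 (0.63). Among the members themselves Cxcl12 and Adipoq were closest to each other (0.33), and Ptn (0.93 to Lepr) and Il7 (0.94 to Cxcl12) were the farthest from any other member. Esm1, Igfbp5, Hp and Kng1 share the 12 arrays with the members, so likeness to them is a description of these arrays.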

How the data were processed

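Per the labels' protocols, RNA of 5000 sorted cells per array was amplified by a single-primer isothermal method, which can distort transcript proportions, then biotin-labelled. The authors' tool was affy, per the submitters' processing notes, with version and summary method not stated there. The log2 values (array medians 5.95 to 6.04) were used as deposited. Of 34760 probe sets, 21640 have 1 gene symbol, 1321 several and 11799 none, and 21553 of the first were updated by Entrez number through RefSeq (GRCm38.p6). Where a gene had several, the brightest was used. All 14217 genes over the 40th percentile on at least 3 arrays were fitted with limma 3.58.1 in R 4.3.3, 1 coefficient per group, eBayes (prior degrees of freedom 2.36) and two-sided Benjamini-Hochberg adjustment with a threshold of 0.05. Differences within each tumor state had been planned as tests of the members and are given as descriptions, since they share arrays with the tumor contrasts, and the averaged cell type contrast was added for testing after the data were seen. Members, gene lists and tests were chosen with earlier results of these data known. Named were all members, up to 4 genes of smallest p per list and comparison (for the receptors also Cxcr4 and Ackr3, whose p ranked just after that of Lrp1, and in the marker lists genes chosen after their values were seen), and the nearest genes in pattern. P-values set a difference against the spread between arrays within the groups, shared over the 4 groups, and the number of arrays limits the precision. Since pooling of animals is not stated, that spread need not be the spread between mice. Same-numbered arrays did not deviate together (18 correlations from -0.08 to 0.07), which does not settle whether they share mice. The main fit was therefore unpaired, with a replicate block among the alternatives. The steps were tested on simulated data. Alternative settings changed the scaling (quantile or median), the filter (none or the 60th percentile), the probe set rule (their mean) and the fit (trend and robust eBayes, array weights, only the groups compared, a replicate block), and left out each array, with replicate 3 of both osteoblast groups left out added after the data were seen. Figures were drawn with matplotlib 3.10.9.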

Additional observations from a re-analysis of the deposited data

Results flagged for a closer look

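In 5 of the 10 niche factors every osteoblast array of tumor-bearing mice lay below every tumor-free one, and every endothelial array of tumor-bearing mice lay above every tumor-free one. Taken alone, the first held for 8.36% of all genes and the second for 5.63%. The share of all genes with both was not counted, so nothing is read from the 5. The osteoblast tumor difference minus the endothelial tumor difference, on the log2 scale, was -2.28 in Lepr, -2.21 in Adipoq, -1.57 in Ebf1, -1.49 in Ebf3 and -1.47 in Cxcl12. These genes were picked out by arrays that do not overlap, and the difference was not tested apart from the selection, which used both tumor differences. In the limma fit over all genes 4 of 14217 passed for this difference (0.0281%), and 0 of the 10 niche factors did, with 8 lower at an unadjusted p under 0.05 (6.47% of all genes in either direction).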

How the results depend on the processing

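Of the niche factors, 0 passed over all genes in either tumor contrast or in their difference in any alternative run, the replicate block included, and the averaged cell type count, 9 with Il7 included, stayed between 8 and 10 (Il7 was lost in 7 of 12 fits without 1 array). In tumor-free mice the count of 9 also lay between 8 and 10. Their osteoblast tumor median ran between -0.61 and -0.34 over the alternatives, the endothelial one between 0.77 and 0.93, and the averaged cell type median from 1.15 to 1.31. Counts over all genes moved more. The 8 genes called for osteoblasts became 5 with quantile normalization, 1 with array weights, 0 in a limma fit of the groups compared only (1046 at an unadjusted p under 0.05), 1 with the replicate block and 45 without replicate 3 of both osteoblast groups, and lay between 1 and 25 when 1 array was left out. The 2 called for endothelial cells lay between 2 and 6 when 1 array was left out. The 4 called for the difference of tumor effects became 1 with the replicate block and 8 without replicate 3 of both osteoblast groups, and lay between 0 and 7 when 1 array was left out. The 1 niche factor called between cell types in tumor-bearing mice became 2 in the fit of the groups compared only, and 1 to 2 when 1 array was left out. The cause of these changes was not tested. In that comparison values near 0 changed sign: Adipoq was -0.019 with quantile normalization and between -0.29 and 0.29 when 1 array was left out (-0.11 and -0.060 without osteoblast and -0.29 without endothelial replicates of tumor-bearing mice). Leaving out 1 array, Ebf3 lay between -0.13 and 0.20 (-0.016 without endothelial tumor-bearing replicate 3), Cxcl14 between -0.014 and 0.80, and Kitl between -0.44 and 0.030, the latter also without replicate 3 of both osteoblast groups. Dim signal limits Il7, which was under the 40th percentile on 8 of 12 arrays.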
